A study of Mus musculus with 18 samples.

Results

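The genes described here are St8sia6, 8 other sialyltransferase genes (St8sia4, St8sia1, St3gal1, St3gal2, St3gal4, St3gal5, St3gal6 and St6gal1) and Cmas, the gene of the enzyme that activates sialic acid. They are 10 of the 55536 genes in the count table and were taken by symbol. St8sia6 was chosen by its change in the same data: it stood in the study's lists of genes that differed with Tyrobp deletion, both in WT and in Q175 mice. Its values in those contrasts are therefore a description without a p-value. RNA was sequenced from striatal microglia in 18 samples of adult mice of the C57BL/6 strain (the J substrain in the methods): 5 WT, 5 Q175, 3 Tyrobp-/- and 5 Q175;Tyrobp-/-. Q175 mice are heterozygous knock-in mice that carry an expanded CAG repeat in the mouse huntingtin gene and serve as a model of Huntington's disease. Tyrobp-/- mice are homozygous for a deletion of Tyrobp (DAP12), the signalling adaptor of several myeloid receptors; the deletion is carried by every cell and not by microglia alone. The cells were enriched from dissociated striata with magnetic beads against CD11b, an integrin of microglia and other myeloid cells, so that each sample is a mixed population. The labels give 2 striata per sample and the methods give 1, and nothing gives the age more closely than adult.

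Sialic acids are the acidic sugars at the outer ends of many cell surface glycans. CMAS joins sialic acid to CMP in the nucleus, a transporter carries the product into the Golgi, and sialyltransferases place the sugar on glycoproteins and glycolipids. The ST3GAL enzymes attach it to galactose in an alpha-2,3 linkage, the ST6GAL enzymes in an alpha-2,6 linkage, and the ST8SIA enzymes extend an existing sialic acid in an alpha-2,8 linkage, ending in disialic acid, gangliosides such as GD3, or long polysialic acid chains. Receptors of the Siglec family read these sugars, some of them through inhibitory motifs and others through the TYROBP adaptor. ST8SIA6 builds disialic acid units, mainly on O-glycans, and ST8SIA4 builds polysialic acid.

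St8sia6 (ENSMUSG00000003418) is a protein-coding gene on the minus strand at chr2:13651021-13794064 (GRCm38, GENCODE M21), with 7664 bases of exons. The promoter window is shown because St8sia6 was the member whose transcript level differed between mice with and without Tyrobp. The 300 bases at chr2:13793471-13793770 (minus strand, GRCm38.p6, RefSeq) run from 250 bases before to 50 bases after the RefSeq start, which lies 544 bases inside the end of the GENCODE gene. Capitals mark the GC box motif, searched as GGGCGG on both strands and found here on the opposite strand.
St8sia6 promoter: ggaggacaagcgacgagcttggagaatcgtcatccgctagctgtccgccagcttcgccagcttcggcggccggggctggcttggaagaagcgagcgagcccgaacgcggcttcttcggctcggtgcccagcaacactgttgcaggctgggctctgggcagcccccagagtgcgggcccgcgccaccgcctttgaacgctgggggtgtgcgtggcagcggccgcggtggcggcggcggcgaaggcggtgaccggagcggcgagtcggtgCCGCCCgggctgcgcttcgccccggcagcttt
The window was 72.0% G and C and held 39 CpG dinucleotides, against medians of 52.7% and 7 over the 32851 promoter windows of that length. It held 1 GC box, a motif present in 35.7% of all windows, and none of GAGGAA, the core bound by the myeloid factor PU.1 (28.3% of windows), TATAAA (13.6%) or CCAAT (37.4%), on either strand. The GC box, at position 269 of the window, lies after the RefSeq start. Windows of 8 of the 10 members were in the table.

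Total counts lay between 11260410 and 29771983 per sample. Tyrobp itself was between 196 and 475 normalized counts per 1000000 (CPM) in the 10 samples with the gene intact and between 9.89 and 21.3 CPM in the 8 samples labelled as deleted. All 10 microglial markers, P2ry12 and Tmem119 among them, had counts in every sample, with a geometric mean between 502 and 1125. Markers of other cells were present too, with geometric means of 158 to 519 for oligodendrocytes, 26.7 to 192 for astrocytes, 10.8 to 50.1 for neurons and 1.79 to 14.6 for monocytes and neutrophils. Levels of astrocytes, neurons and oligodendrocytes combined into 1 score were highest in Q175 replicate 14 (1.51), Tyrobp-/- replicate 20 (1.39) and Q175;Tyrobp-/- replicate 5 (1.25). Every transcript level below is a level in this mixture, and fewer cells of a type cannot be told apart from less RNA per cell.

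St8sia6 was present in all 18 samples and was lower in every sample without Tyrobp than in any sample with it. In WT it was 21.8, 20.1, 12.7, 32.0 and 21.97 CPM in replicates 1, 2, 6, 7 and 8. In Q175 it was 23.1, 10.9, 11.2, 23.8 and 44.6 CPM in replicates 3, 4, 9, 14 and 17. The Q175 samples, from 10.9 to 44.6 CPM, spread on both sides of the WT samples, so the groups with intact Tyrobp overlapped. In Tyrobp-/- it was 2.61, 2.78 and 3.66 CPM in replicates 15, 19 and 20. In Q175;Tyrobp-/- it was 3.07, 3.07, 2.73, 2.15 and 4.50 CPM in replicates 5, 11, 12, 13 and 16. The highest sample without Tyrobp, at 4.50 CPM, was below the lowest sample with it, at 10.9 CPM. Behind these levels stood 36 to 106 counts per sample without Tyrobp and 111 to 1047 counts with it, so the transcript was still detected after the deletion. WT averaged 21.7 ± 6.87 CPM (SD, n = 5) and Q175 averaged 22.7 ± 13.7 CPM (SD, n = 5). After the deletion the mean was 3.02 ± 0.564 CPM (SD, n = 3) on the WT background and 3.10 ± 0.866 CPM (SD, n = 5) with the Q175 allele.

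**Figure D1:**
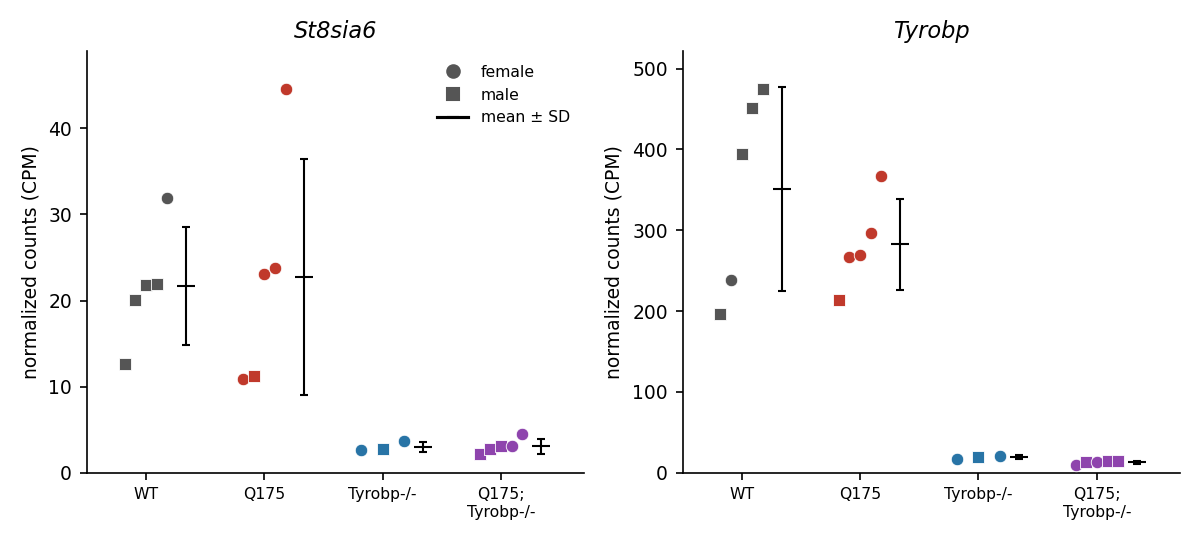
Normalized counts (CPM) of St8sia6 (left) and of Tyrobp (right) in each of the 18 samples by genotype, with circles for females, squares for males and black bars for the group mean ± SD. The 8 samples without Tyrobp sit between 2.15 and 4.50 CPM of St8sia6, below all 10 samples with Tyrobp, which run from 10.9 to 44.6 CPM.

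The first question was what Tyrobp deletion did in mice without and with the Q175 allele. The log2 fold change of St8sia6 was -2.78 (SE 0.32), a 6.88-fold lower level, in Tyrobp-/- against WT, and -2.87 (SE 0.39), a 7.32-fold lower level, in Q175;Tyrobp-/- against Q175. All 15 pairs of samples in the first contrast and all 25 pairs in the second had the lower value in the mouse without Tyrobp. Groups failed to overlap for 4.48% and 0.858% of all tested genes in these contrasts. St8sia6 passed edgeR's quasi-likelihood test at an FDR of 0.1 in both, as did 0.0222% (4 of 18017) and 0.0111% (2 of 18059) of all tested genes, and nothing is read from these calls because the same contrasts chose the gene. The difference between both deletion effects was -0.02 (SE 0.52) on the log2 scale, with 2 SE either side from -1.068 to 1.025. Nothing is read from it either, because both contrasts that form it chose the gene.

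The size of the difference varied between subsets of the samples, and the call did not hold in every setting. Because the groups do not overlap, the direction within a subset is fixed and is not a result. Females alone gave a log2 difference of mean levels of -2.61 in the Q175 contrast (2 against 4 samples) and -3.37 in the WT contrast (2 against 1). Males gave -2.10 (3 against 1) and -2.75 (1 against 4), so that all but the first of these rest on a single sample in 1 arm. Without the sample of each group with the highest score of other cell types the differences were -2.65 and -2.93. In the 3 samples with the highest scores St8sia6 was 23.8 CPM (Q175 replicate 14), 3.66 CPM (Tyrobp-/- replicate 20) and 3.07 CPM (Q175;Tyrobp-/- replicate 5), the second being the highest value of the Tyrobp-/- group. In Q175;Tyrobp-/- against Q175 the call at FDR 0.1 was lost with sex as a term (-2.51), with the score of other cell types as a term (-2.69), without Q175 replicate 3 or 14 and without any 1 of the 5 Q175;Tyrobp-/- samples, with values from -3.05 to -2.47 over all 10 omissions. In Tyrobp-/- against WT it was lost with the score as a term (-2.87) and without Tyrobp-/- replicate 15 or 19, with values from -2.94 to -2.62 over the omissions.

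The second question was what the Q175 allele did, with and without Tyrobp. These contrasts did not choose St8sia6, although they share samples with those that did. St8sia6 did not pass the test in Q175 against WT, where the log2 fold change was 0.11 (SE 0.38, edgeR adjusted p = 0.999) and 2 SE either side ran from -0.64 to 0.86. It did not pass in Q175;Tyrobp-/- against Tyrobp-/- either, with a log2 fold change of 0.02 (SE 0.28, edgeR adjusted p = 0.981) and 2 SE from -0.54 to 0.58. The first value changed sign without Q175 replicate 17, the highest sample at 44.6 CPM (-0.33), without WT replicate 6 (-0.03), with sex as a term (-0.50) and with the score of other cell types as a term (-0.66). The second changed sign without Tyrobp-/- replicate 15 (-0.05) or 19 (-0.01) or Q175;Tyrobp-/- replicate 16 (-0.13). Sex was unevenly spread, with 1 female of 5 in WT and 4 of 5 in Q175, and its part in the spread of St8sia6 was not tested.

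The members that extend sialic acid chains beside St8sia6 differed little between genotypes. St8sia4, the polysialic acid synthase, had group means from 40.4 ± 8.998 CPM (SD, n = 5) in Q175;Tyrobp-/- to 42.9 ± 7.598 (SD, n = 3) in Tyrobp-/-. St8sia1, the GD3 synthase, had means from 8.04 ± 1.41 CPM (SD, n = 3) in Tyrobp-/- to 9.52 ± 1.80 (SD, n = 5) in Q175;Tyrobp-/-. In neither gene did the samples of any of the 4 contrasts separate. St8sia1 and Cmas are neighbours on chromosome 6, with 45831 bases between them.

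Of the members that sialylate galactose, St3gal5 and St3gal4 showed the largest differences, and both groups of samples overlapped in each case. St3gal5 makes GM3, the precursor of most brain gangliosides. It was 91.5, 48.6, 78.9, 58.0 and 71.5 CPM in Q175 replicates 3, 4, 9, 14 and 17. In Q175;Tyrobp-/- replicates 5, 11, 12, 13 and 16 it was 81.1, 99.4, 91.3, 89.8 and 93.1 CPM. It was 69.4, 83.3, 70.6, 97.1 and 77.5 CPM in WT replicates 1, 2, 6, 7 and 8 and 97.3, 84.8 and 65.2 CPM in Tyrobp-/- replicates 15, 19 and 20. The Q175;Tyrobp-/- samples were therefore mostly above those of Q175, with Q175 replicate 3 among them, and the log2 fold change was 0.38 (SE 0.16, unadjusted p = 0.0379, edgeR adjusted p = 0.533). St3gal4 acts mainly on type II chains of glycoproteins. It was 14.8, 13.9 and 19.1 CPM in Tyrobp-/- replicates 15, 19 and 20 and 25.0, 18.6, 19.6, 22.3 and 20.3 CPM in Q175;Tyrobp-/- replicates 5, 11, 12, 13 and 16. In WT replicates 1, 2, 6, 7 and 8 it was 20.3, 17.2, 13.99, 17.4 and 17.9 CPM, and in Q175 replicates 3, 4, 9, 14 and 17 it was 24.0, 19.8, 19.4, 19.1 and 15.9996 CPM. Only Tyrobp-/- replicate 20 of the Tyrobp-/- group reached the Q175;Tyrobp-/- range, and the log2 fold change between these groups was 0.39 (SE 0.16, unadjusted p = 0.0400, edgeR adjusted p = 0.354).

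The remaining members overlapped between genotypes as well, and none passed the test. St3gal6, which also acts on type II chains, averaged 299.8 ± 48.0 CPM among WT samples and 232 ± 37.9 CPM among Q175 samples (SD, n = 5 each), with a log2 fold change of -0.35 (SE 0.18, edgeR adjusted p = 0.896). St3gal1 and St3gal2 sialylate O-glycans and gangliosides, and their levels ran from 4.47 to 10.6 CPM and from 34.8 to 98.5 CPM over all samples. St6gal1, the alpha-2,6 sialyltransferase of N-glycans, ran from 54.4 to 109 CPM, and within WT alone it covered that whole range. Cmas varied least, from 28.05 to 42.3 CPM, a 1.51-fold span over 18 samples against a 20.8-fold span for St8sia6. The spans of the 8 other sialyltransferases among the members were 1.80-fold (St3gal4) to 2.83-fold (St3gal2).

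**Figure D2:**
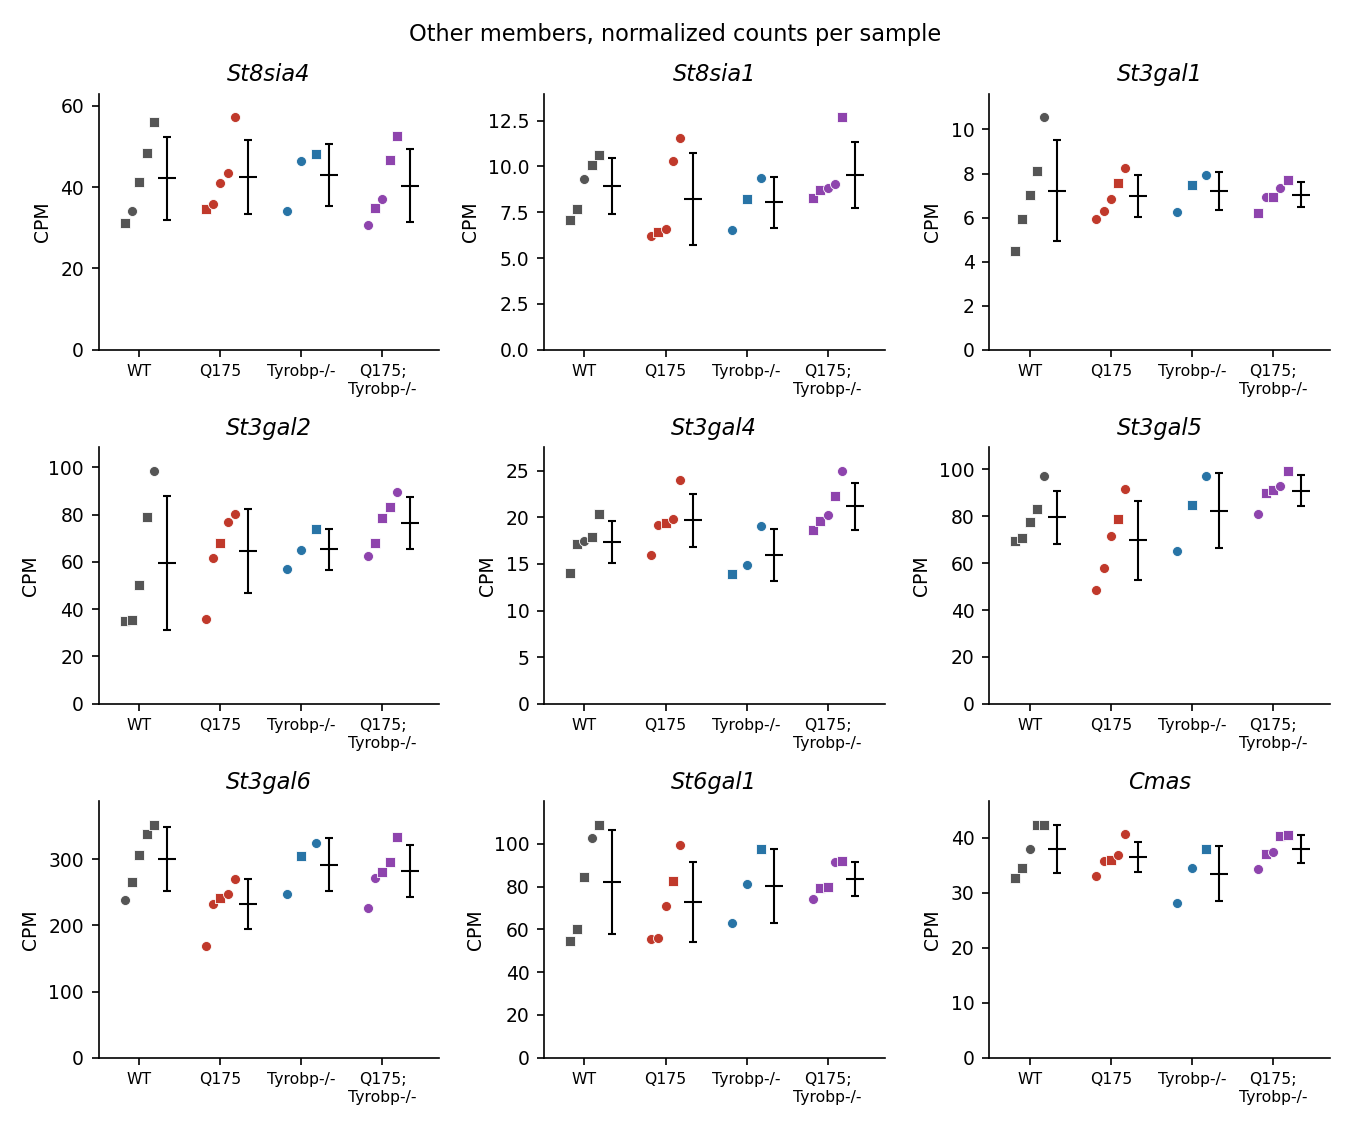
Normalized counts (CPM) of the 9 members other than St8sia6 in each sample by genotype, 1 panel per gene with its own axis from 0, with circles for females, squares for males and black bars for the group mean ± SD. In all 9 panels each genotype group overlaps every other, as in Cmas, where all samples lie between 28.05 and 42.3 CPM.

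None of the 9 other members passed edgeR's test at an FDR of 0.1 in any of the 4 contrasts or in the interaction of Q175 and Tyrobp deletion, and none passed with DESeq2. At an unadjusted p under 0.05, 1 of 9 was higher in Q175;Tyrobp-/- against Q175 (St3gal5, against 8.01% of all tested genes), 1 of 9 was higher in Q175;Tyrobp-/- against Tyrobp-/- (St3gal4, against 13.2%), and 0 of 9 in Q175 against WT (6.24%), Tyrobp-/- against WT (6.82%) and the interaction (6.01%). The members' shares are therefore close to those of all genes. Of all genes, edgeR called 0% for the Q175 allele, with or without Tyrobp, and 0% for the interaction, and DESeq2, which called St8sia6 alone among the members in both deletion contrasts, called 0.932% and 0.227% of all genes there. Its shares for the Q175 allele were 1.28% with Tyrobp and 3.84% without it, and 0.0107% for the interaction. The log2 fold changes of the 9 other members lay between -0.11 and 0.20 in Tyrobp-/- against WT (median 0.04, all genes 0.02) and between -0.07 and 0.38 in Q175;Tyrobp-/- against Q175 (median 0.19, all genes -0.05). Over these 9 genes, 2 SE either side reached down to -0.58 in the first contrast and -0.44 in the second, so falls of the size seen for St8sia6 lay outside these intervals for each of them. In Q175 against WT they lay between -0.35 and 0.20, and in Q175;Tyrobp-/- against Tyrobp-/- between -0.11 and 0.39.

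**Figure D3:**
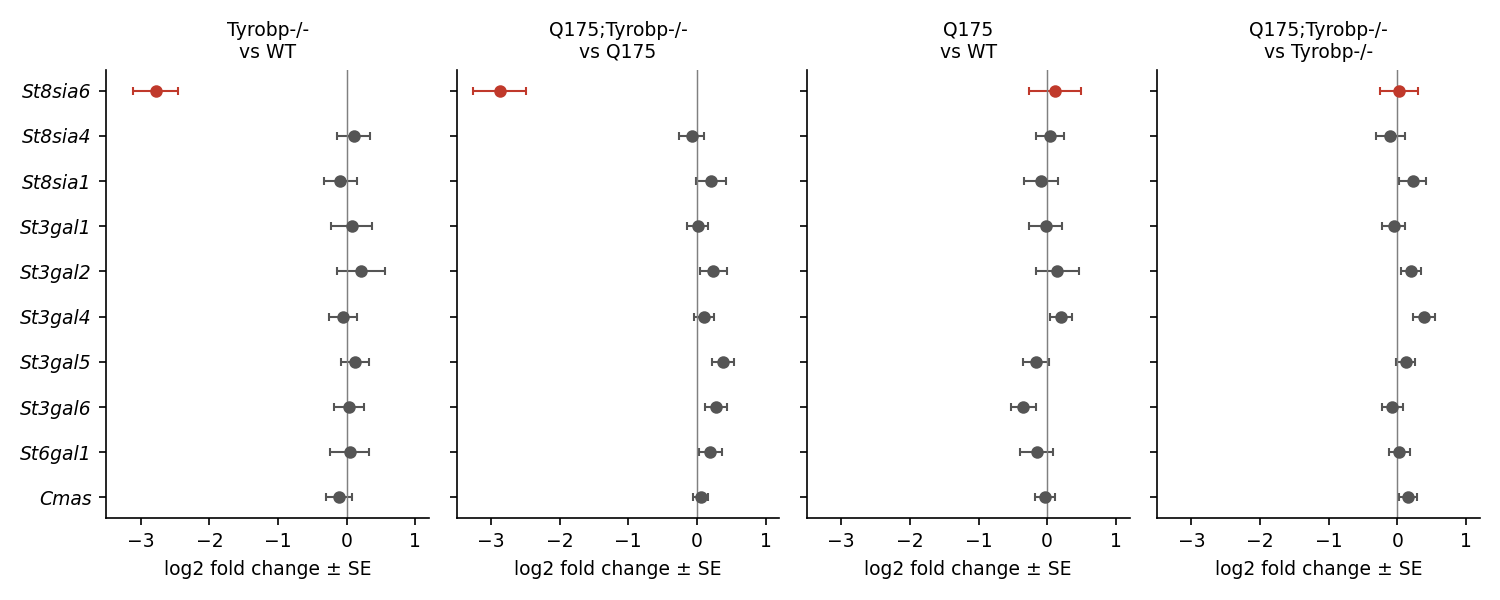
Log2 fold change of each of the 10 members in 4 contrasts, with points for edgeR estimates, bars for ± 1 SE and St8sia6 in red. St8sia6 sits at -2.78 and -2.87 in the 2 contrasts of Tyrobp deletion and at 0.11 and 0.02 in the 2 contrasts of Q175, while all other members lie between -0.35 and 0.39.

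Some of these counts share sequence with another gene, and the libraries did not keep the strand. Exons of St3gal6 share 1603 bases (26.0% of its exonic length) with Dcbld2 on the opposite strand, and those of St3gal4 share 412 bases (14.1%) with 4930581F22Rik, so both values are uncertain to that extent. Exons of St8sia6 share 112 bases (1.46%) with the antisense transcript Gm37126, which had 0 counts in all 18 samples.

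Compared per length of exon, St8sia6 was among the less abundant members even with Tyrobp intact. In WT the order of levels, in CPM per kb of annotated exon (mean ± SD, n = 5), began with St3gal6 (48.6 ± 7.78), St3gal5 (30.4 ± 4.32) and St6gal1 (16.7 ± 4.98). It went on with St3gal2 (11.8 ± 5.60), Cmas (8.05 ± 0.930) and St3gal4 (5.93 ± 0.770). It ended with St8sia6 (2.83 ± 0.897), St8sia4 (2.10 ± 0.505), St3gal1 (1.05 ± 0.337) and St8sia1 (0.957 ± 0.163). Ranges of neighbours overlapped from St6gal1 to St3gal4, between St8sia6 and St8sia4, and between St3gal1 and St8sia1. In Tyrobp-/- the level of St8sia6 was 0.393 ± 0.0735 CPM per kb (SD, n = 3), below that of every other member. Lengths count all annotated exons, and 20.1 kb for St8sia4 may exceed the transcript used here, so the order is approximate.

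**Figure D4:**
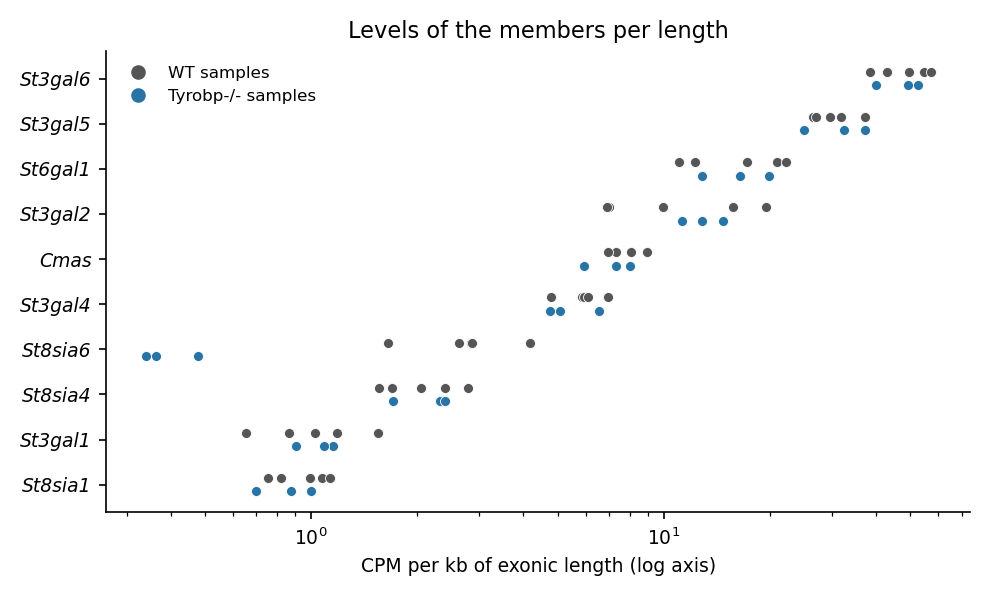
CPM per kb of exonic length of the 10 members on a log axis, ordered by their WT mean, with a point for each of the 5 WT samples (grey) and 3 Tyrobp-/- samples (blue). St8sia6 moves from rank 7 in WT, at a mean of 2.83, to the lowest level in Tyrobp-/-, at 0.393, while the points of the other members overlap.

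Set against the other members within each sample, St8sia6 showed the same pattern, and this ratio depends little on the scaling between samples. The log2 ratio of St8sia6 to the summed other 9 members (each with 1 CPM added) averaged -4.86 in WT with an SD of 0.43 and -4.72 in Q175 with an SD of 0.75 (n = 5 each). Without Tyrobp it averaged -7.29 (SD 0.40, n = 3) and, with the Q175 allele, -7.33 (SD 0.33, n = 5). The deletion contrasts, given without a test, differed by -2.43 in WT and -2.61 in Q175. The Q175 contrasts differed by 0.14 with Tyrobp (2-sided exact permutation p = 0.690, adjusted over both tests 0.893, higher in 15 of 25 pairs) and by -0.04 without it (2-sided exact permutation p = 0.893, adjusted 0.893, higher in 8 of 15 pairs). Both are small beside the SD between samples.

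Within the subfamily of the 6 ST8SIA genes, St8sia6 supplied 25.0% ± 7.88 of the summed CPM in WT and 23.6% ± 8.80 in Q175 (mean ± SD, n = 5 each). Its share was 3.904% ± 0.453 (SD, n = 3) in Tyrobp-/- samples and 4.81% ± 1.91 (SD, n = 5) when both alleles were combined. St8sia4 supplied 47.9% ± 7.09 in WT and 60.4% ± 7.83 in Q175;Tyrobp-/-. These shares are of CPM not divided by exon length, which was 20.1 kb for St8sia4 and 7.66 kb for St8sia6. Per kb, St8sia6 averaged 2.83 and St8sia4 2.10 CPM in WT, with overlapping ranges. The 5 genes other than St8sia6 summed to between 47.5 and 80.8 CPM in WT, 56.9 and 81.4 CPM in Q175, 70.1 and 79.1 CPM in Tyrobp-/- and 50.6 and 69.7 CPM in Q175;Tyrobp-/-. The last 2 ranges did not overlap, as was the case for 9.97% of all tested genes in that contrast. Of all 20 sialyltransferase genes together, St8sia6 supplied 2.73% ± 0.735 in WT and 0.391% ± 0.109 in Tyrobp-/-.

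**Figure D5:**
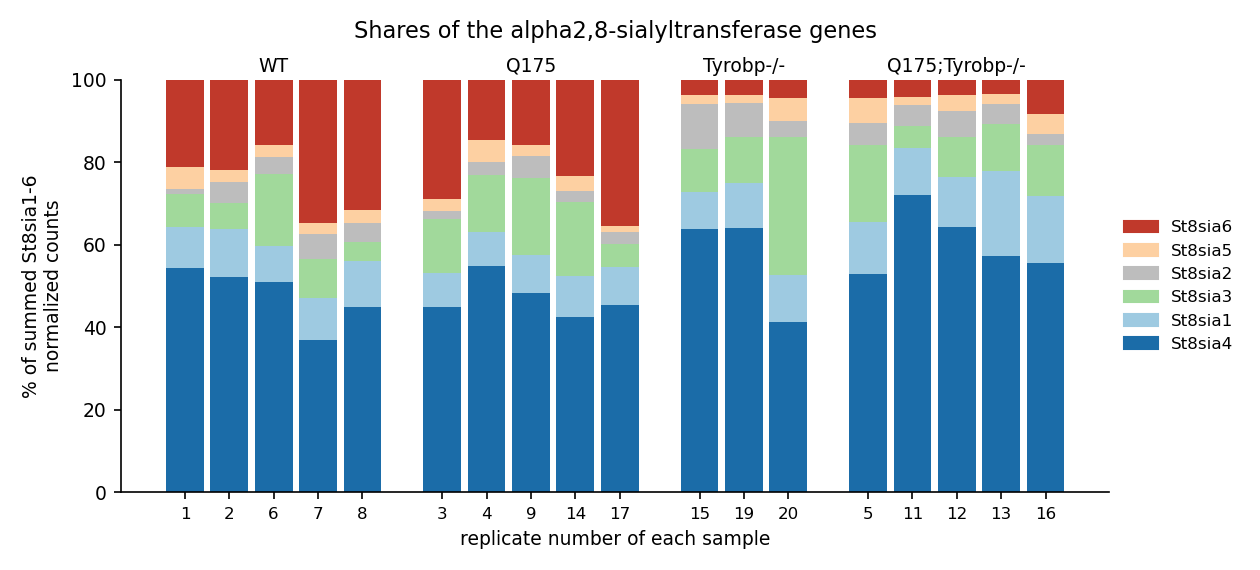
Share (%) of each ST8SIA gene in the summed normalized counts of the 6 genes, 1 stacked bar per sample, grouped by genotype and labelled by replicate number. Counts are not divided by exon length. The red St8sia6 segment covers 14.6 to 35.4% of the bar in the 10 samples with Tyrobp and 3.52 to 8.16% in the 8 without, while St8sia4 is the largest segment in every bar.

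Of all 20 sialyltransferase genes, 19 were tested in the deletion contrasts, and none of the 18 beside St8sia6 was called. St6galnac1 had no count in any sample and was not tested. The median log2 fold change of the 18 was 0.08 in Tyrobp-/- against WT (all genes 0.02) and -0.03 in Q175;Tyrobp-/- against Q175 (all genes -0.05). St6gal2, an alpha-2,6 sialyltransferase known mainly from brain, had an unadjusted p under 0.05 in Q175 against WT (2.29, SE 0.78) and in Tyrobp-/- against WT (2.69, SE 0.98), and St6galnac6 in Q175 against WT (0.91, SE 0.36), none of them called (edgeR adjusted p from 0.485 to 0.661). That is 2 of 18 in the first contrast, against 6.24% of all tested genes, and 1 of 18 in the second, against 6.82%. In the interaction it was 2 of 18, against 6.01%, both negative: St6gal2 (-3.86, SE 1.34) and St8sia3 (-1.51, SE 0.63). Neither was called (edgeR adjusted p = 0.716 for each). All 3 of these genes were highest in samples with high astrocyte markers. St6gal2 was 12.95 CPM in Q175 replicate 14 and 14.6 CPM in Tyrobp-/- replicate 20, where the level of the 8 astrocyte markers was 192 and 159, and at most 3.88 CPM in all other samples. St6galnac6 was 51.6 and 32.4 CPM in these 2 samples, and St8sia3 was 18.2 and 27.7 CPM. The part of astrocytes in these values was not tested.

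Genes that make, move or remove sialic acid were not called in the deletion contrasts. Of 13 genes of sialic acid supply and turnover, 11 were tested and none was called by edgeR. Nanp and Cmah did not reach 1 CPM in any sample. In Q175;Tyrobp-/- against Tyrobp-/-, 3 of the 11 were lower at an unadjusted p under 0.05, which 13.2% of all tested genes passed in either direction, namely Slc35a1, the Golgi transporter of CMP-sialic acid (-0.53, SE 0.15), Renbp (-0.41, SE 0.16) and Npl, a sialic acid lyase (-0.32, SE 0.14). In Q175 against WT, Neu4, a sialidase, was higher (1.24, SE 0.35) and Slc17a5, the lysosomal sialic acid exporter, lower (-0.41, SE 0.18) by that measure, against 6.24% of all tested genes. DESeq2 called Slc35a1 in the first of these contrasts and Neu4 in the second, where it called 3.84% and 1.28% of all genes. On counts simulated for these contrasts DESeq2 made 95 and 73 false calls, against 24 and 17 by edgeR, so calls by DESeq2 alone are less certain. The level of the astrocyte markers was 53.8 to 192 in Q175 and 28.5 to 41.3 in WT. That of the oligodendrocyte markers was 241 to 519 in Q175 and 158 to 388 in WT. The part of either cell type in the value of Neu4 was not tested.

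Genes of the receptors that read sialic acid were tested in the same fits. None of 8 was called by edgeR in any contrast, and DESeq2 called 1, Siglecg, in each deletion contrast. On counts simulated for the deletion contrasts in WT and in Q175, DESeq2 made 83 and 72 false calls, against 12 and 13 by edgeR. Siglecg ran from 0.889 to 2.93 CPM in WT and from 0.574 to 2.55 CPM in Q175, and with the deletion from 2.98 to 9.84 CPM in Tyrobp-/- and from 4.07 to 9.06 CPM in Q175;Tyrobp-/-. The groups did not overlap in either deletion contrast, as for 4.48% and 0.858% of all tested genes, and the log2 fold changes were 2.09 (SE 0.50, edgeR adjusted p = 0.565) and 1.96 (SE 0.39, edgeR adjusted p = 0.368). In Tyrobp-/- against WT, 4 of the 8 had an unadjusted p under 0.05, against 6.82% of all tested genes. Siglecg and Siglece (0.78, SE 0.31) were the higher ones, and Cd33 (-0.80, SE 0.28) and Mag, the myelin-associated glycoprotein of oligodendrocytes (-0.66, SE 0.29), the lower ones. There were 3 of 8 in Q175;Tyrobp-/- against Q175, against 8.01% of all genes, namely Siglecg, Siglece (0.58, SE 0.21) and Siglech (0.41, SE 0.17), all higher. In Q175 against WT there was 1 of 8, Cd33, which was lower (-0.48, SE 0.20), against 6.24% of all genes. Cd33 also did not overlap between Tyrobp-/- and WT, with means of 487 and 896 CPM and a lower value in all 15 pairs. In Q175;Tyrobp-/- against Q175 its groups overlapped, with a lower value in 19 of 25 pairs. Of the 8 receptor genes 7 lie on chromosome 7, as Tyrobp does. Cd22 and Mag are the nearest, at 0.457 and 0.491 Mb from it, Siglecf, Siglecg, Cd33 and Siglece lie at 12.9 to 13.2 Mb and Siglech at 25.4 Mb. In Tyrobp-/- against WT, Cd22 and Mag had log2 fold changes of -0.71 (SE 0.55) and -0.66 (SE 0.29). In Q175;Tyrobp-/- against Q175 they had -0.36 (SE 0.32) and -0.42 (SE 0.23). Only Mag in the first of these contrasts had an unadjusted p under 0.05, and the part of position was not tested. St8sia6 lies on chromosome 2.

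The genes whose levels followed St8sia6 most closely over all 18 samples were, by Pearson's r of log2 CPM among 16725 genes, Lox (0.94), Spp1 (0.94), Ch25h (0.94), Cst7 (0.93), Tyrobp itself (0.92), Klk8 (0.90), Clec7a (0.90), Lpl (0.90), Rai14 (0.90) and Rab7b (0.88). These points share the Tyrobp genotype, which separates them into groups of 10 and 8 samples. Spp1, Cst7, Clec7a and Lpl are known as genes of disease-associated microglia, and Spp1 averaged 57.6 CPM in the 10 samples with Tyrobp and 0.929 CPM in the 8 without. Lox, Ch25h and Rab7b also averaged under 1 CPM without Tyrobp (0.229, 0.280 and 0.826 CPM), so their place among the genes compared, which needed 1 CPM in 5 samples, rests largely on the samples with it. Within the 10 WT and Q175 samples the r of Tyrobp, intact in all 10, was 0.07. For Spp1, Cst7, Clec7a and Lpl it was 0.80, 0.84, 0.61 and 0.83, values that the choice of these genes partly fixes because the 10 samples are among the 18 that ranked them. Over those 10 samples the 5 closest genes were Tnfsf8 (0.93), Pym1 (0.92), 9330175E14Rik (0.92), Oas3 (0.91) and Cdkn1a (0.91). These are the highest of 16725 values over only 10 samples, and how many as high would arise by chance was not tested. Oas3 averaged only 0.645 CPM in these 10 samples. No other member was near the top: the closest over all samples, Cmas, ranked at 4530 with an r of 0.18. Over the 10 samples St8sia1 was the member most like St8sia6, at 0.76.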

How the data were processed

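Libraries were made with SMART-Seq v4 reagents for very low RNA input and were non-directional. The authors aligned reads to GRCm38 with STAR v2.5 and deposited featureCounts counts per gene, whole numbers without normalization. The labels list the build as GRCh38, a human one, and the gene model in the methods is a UCSC one. All 55536 identifiers occur in GENCODE M21 (GRCm38), which gave symbols, positions and exon lengths. A further 2 columns of the table match none of the labelled samples and were left out. The members and lists were chosen with earlier results of these data known.

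Counts were scaled by TMM to counts per 1000000 (CPM). Each contrast was fitted on its own groups with edgeR 4.0.16 (quasi-likelihood test, R 4.3.3) after dropping genes that stayed under 1 CPM in all its samples. The Benjamini-Hochberg FDR was 0.1, and the interaction was tested over all 4 groups. The fits were tested on simulated counts. There edgeR called 23.1% to 45.7% of 2-fold changes in the 4 contrasts and 12.5% in the interaction. It called 68.5% to 96.5% and 63.1% of 4-fold changes, and 88.2% to 97.3% and 87.3% of 8-fold changes. The simulated counts held many changed genes, whereas edgeR called at most 4 genes in any real fit, so these shares may not carry over. In Tyrobp-/- against WT, estimated differences of 4.26-fold (Siglecg) and 6.43-fold (St6gal2) were not called. A gene that was not called may therefore still differ 2-fold or more. The methods describe striata dissociated for each mouse. Neither they nor the labels say outright that all samples came from separate mice, so p-values measure the spread between these samples. Ratios were compared with 2-sided exact permutation tests. Named are the 10 members, genes of lists of sialyltransferases, sialic acid supply, gangliosides, polysialic acid carriers, sialic acid receptors and cell markers, Tyrobp, genes that overlap a member, and the genes closest to St8sia6 by correlation (log2 CPM, prior count 2, at least 1 CPM in at least 5 samples). Alternatives were DESeq2 1.42.0, its size factors, filterByExpr, no filter, 1 fit over 4 groups, sex or a score of other cell types as a term, and leaving out each sample. Subsets by sex and without the samples richest in other cells were added after seeing the data.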

Additional observations from a re-analysis of the deposited data

Results flagged for a closer look

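Of 30 groups of 5 samples (10 members in 3 genotypes), 1 had a sample far from the others, and chance flags about 1 in 20 such groups. St8sia1 was 12.7 CPM in Q175;Tyrobp-/- replicate 13, with the other 4 samples of that genotype between 8.29 and 9.04 CPM.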

How the results depend on the processing

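No paired analysis was possible because the groups share no replicate number. The direction of St8sia6 in both deletion contrasts was the same under all alternatives, which is not a result because its groups do not overlap. In Q175;Tyrobp-/- against Q175 the call was lost with sex as a term (log2 fold change -2.51) and with the score of other cell types as a term (-2.69), and in Tyrobp-/- against WT with the score (-2.87). The number of members called was then 0 in place of 1. Leaving out 1 sample gave -3.05 to -2.47 and -2.94 to -2.62, with 0 to 1 members called. Within males the first contrast was -2.10 and within females the second was -3.37. In Q175 against WT the sign turned with sex (-0.50) and with the score (-0.66), and leaving out 1 sample gave -0.33 to 0.29. In Q175;Tyrobp-/- against Tyrobp-/- leaving out 1 sample gave -0.13 to 0.18. The interaction of St8sia6 turned with sex (0.53) and the score (0.31), and leaving out 1 sample gave -0.27 to 0.38. The ratio of St8sia6 to the other members turned in Q175 against WT with the mean of log2 levels (-0.0041), and leaving out 1 sample gave -0.11 to 0.35 there and -0.17 to 0.19 in Q175;Tyrobp-/- against Tyrobp-/-. None of the tested values that turned passed its test in any setting, and the causes were not tested. No other member was called in any of 792 alternative values, and the sign changed in 19 of 306 values from other settings and in 47 of 486 that left out 1 sample, all where the main log2 fold change was at most 0.16 in size. With 3 samples in Tyrobp-/-, leaving 1 out leaves 2. Counts of St8sia6 after deletion, at 36 to 106 per sample, limit the precision of its residual level.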

Other observations

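Gangliosides carry much of the sialic acid of the brain. All 10 genes of ganglioside synthesis were tested, from Ugcg, which makes glucosylceramide, to St8sia5, and none was called by edgeR or DESeq2 in any contrast. Their median log2 fold change was 0.07 in Tyrobp-/- against WT and 0.08 in Q175;Tyrobp-/- against Q175, against 0.02 and -0.05 over all genes. Among proteins that can carry polysialic acid, the 4 whose genes were listed (Ncam1, Nrp2, Cadm1 and Glg1) were not called either. Ncam1, the main carrier in neurons, had log2 fold changes of -0.37 (SE 0.21) and -0.34 (SE 0.17) in the same contrasts.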
